A study of Homo sapiens with 6 samples.

Results

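The RAB GTPase genes were described here by the chromatin accessibility of their loci in K562 cells exposed to phorbol ester. Members were the protein-coding genes whose symbol is RAB, a number and an optional letter, which gave 63 of 20033 protein-coding genes in RefSeq (GRCh38.p14). Each was paired with the sites of the authors' table that overlapped its gene body or lay within 10000 bases of it. That gave 495 of 181135 sites, in 60 genes. RAB6C, RAB39B and RAB40A had no site. Among the 495 sites, 74 lay within 1000 bases of an annotated RAB gene start, 296 elsewhere in a gene body and 125 in a flank. The number per gene ran from 1 to 38, with a median of 6.

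K562 is an established human leukaemia line, from chronic myelogenous leukaemia, and all groups carried the WT genotype. The cells received 25 nM PMA (a phorbol ester and protein kinase C agonist) that is used on this line to induce megakaryocyte differentiation, for 0, 6 or 72 h, with medium changes after 24 and 48 h. Accessibility was measured by Omni-ATAC, in which a transposase cuts open chromatin, with 2 libraries per time. The labels do not say that these came from separate cultures, so p-values measure only the spread between these samples, which may be technical.

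RAB proteins are small GTPases of the RAS superfamily that mark membranes and direct vesicle traffic. An exchange factor loads them with GTP, effectors then bind, a GTPase activating protein returns them to the GDP form, and a dissociation inhibitor carries the prenylated GDP form through the cytosol. Megakaryocytes build alpha granules and dense granules for platelets. RAB27A and RAB27B act in secretory and dense granules, RAB32 and RAB38 guide cargo to lysosome-related organelles, and RAB6B is the brain-rich relative of the Golgi protein RAB6A.

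Counts in the sites summed to 17669446 and 24470037 in the 0 h libraries, 12258890 and 33634403 at 6 h, then 30934990 and 35548737 at 72 h. Levels below are CPM, counts relative to library size, scaled by TMM, which centres most sites on no change. A site was called at a Benjamini-Hochberg adjusted p under 0.05 in the quasi-likelihood test of edgeR over all sites. The SE given with a log2 fold change is its absolute value divided by the square root of the F statistic of that test. It is an approximation, least reliable for changes near 0. The scale matters here. The change at 72 h over every tested site had a median of 0.29 (log2) with TMM, 0.11 with RLE size factors, 0.79 with total counts, 0.01 with loess offsets that follow the abundance of a site, and 1.26 with TMM factors taken from sites with a peak in every library. These are called the 5 scalings below. At 0 h, start sites of GATA1, TAL1, HBG1, HBG2, TFRC, ITGA2B, ITGB3 and GP1BA, genes of red cell and platelet precursors, had peaks in both libraries. So did those of the lymphoid genes CD3E and CD79A, while ALB had no start site in the table and that of GP9 was too low to test, so open starts alone did not set the line apart from lymphoid cells.

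Promoter sequence from RefSeq (GRCh38.p14) is shown for the genes whose start sites the results turn on. The lines read 5′ to 3′ on the gene's strand and end at the base before an annotated start. RAB27A (chr15:55319124-55319221, minus strand) is cut where the neighbouring gene PIGB begins, at 55319222. RAB27B (chr18:54828227-54828476, plus strand) is the window of its start inside the gene, the one under its strongest start site. RAB32 lies at chr6:146543583-146543832 (plus strand), RAB6B at chr3:133895883-133896132 (minus strand) and RAB17 at chr2:237590735-237590984 (minus strand). Capitals mark matches on either strand to the ETS motif CCGGAAG (RAB27A, RAB17), the AP-1 motif TGANTCA (RAB27B) and the GC box GGGCGG (RAB32, RAB6B).
RAB27A: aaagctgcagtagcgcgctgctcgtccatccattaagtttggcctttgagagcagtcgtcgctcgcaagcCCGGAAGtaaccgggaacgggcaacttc
RAB27B: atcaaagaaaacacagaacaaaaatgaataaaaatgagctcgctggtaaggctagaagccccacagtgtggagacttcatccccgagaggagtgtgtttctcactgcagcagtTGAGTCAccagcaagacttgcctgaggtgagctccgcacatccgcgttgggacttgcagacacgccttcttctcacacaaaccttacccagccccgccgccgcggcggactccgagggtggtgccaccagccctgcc
RAB32: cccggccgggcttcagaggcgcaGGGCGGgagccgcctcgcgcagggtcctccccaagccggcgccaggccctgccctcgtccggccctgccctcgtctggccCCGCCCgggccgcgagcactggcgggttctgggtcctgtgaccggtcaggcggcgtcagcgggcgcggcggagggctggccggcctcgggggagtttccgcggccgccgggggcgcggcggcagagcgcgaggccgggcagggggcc
RAB6B: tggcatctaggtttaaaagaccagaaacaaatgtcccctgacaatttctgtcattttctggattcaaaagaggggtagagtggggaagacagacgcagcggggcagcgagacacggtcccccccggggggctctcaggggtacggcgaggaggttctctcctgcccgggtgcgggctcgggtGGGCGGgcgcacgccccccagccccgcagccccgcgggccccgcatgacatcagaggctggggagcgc
RAB17: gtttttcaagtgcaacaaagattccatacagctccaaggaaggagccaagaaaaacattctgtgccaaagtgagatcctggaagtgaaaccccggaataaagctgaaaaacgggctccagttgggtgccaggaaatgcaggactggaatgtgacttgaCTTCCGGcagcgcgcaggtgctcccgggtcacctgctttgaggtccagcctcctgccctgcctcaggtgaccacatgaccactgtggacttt
The number of CpG pairs in these 250-base windows was 36 in RAB32, 18 in RAB6B, 12 in RAB27B and 6 in RAB17, and the RAB27A stretch of 98 bases held 9.

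RAB27A lost accessibility along most of its length by 72 h. The gene lies on chr15:55202966-55319123 (gene ID 5873) and had 22 sites. On the TMM scale 4 of them rose and 6 fell at 6 h, and 1 rose and 18 fell at 72 h. Of the 18 falls, 8 were called lower in all 5 scalings. The background over all tested sites was 40.1% called at 6 h (23.4% higher, 16.8% lower) and 67.4% at 72 h (38.2% higher, 29.2% lower).

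The strongest start site of RAB27A (peak57332, chr15:55318126-55319559), which also covers the starts of PIGB and PIGBOS1, measured 23.1 and 30.8 CPM at 0 h, 18.7 and 18.3 at 6 h, then 9.24 and 10.4 at 72 h. Both 72 h libraries lay below every other library. The log2 fold change was -0.55 ± 0.18 (SE) at 6 h (adjusted p = 0.020) and -1.46 ± 0.18 at 72 h (adjusted p = 4.9e-07). The 72 h fall was called in all 5 scalings, with values from -1.64 to -0.49. The 6 h fall was not called with total counts (-0.41, adjusted p = 0.069) or with factors from shared-peak sites (-0.25, adjusted p = 0.29), nor without the library 0 h replicate 2 (adjusted p = 0.25) or either 6 h library (0.062 and 0.070). The 2 other start sites, at starts inside the gene, fell at 72 h too on the TMM scale, by 1.75 (peak57317) and 1.58 (peak57321). Fewer open cells and a less open site in each cell cannot be told apart in such bulk libraries.

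Within the gene, the strongest RAB27A site (peak57329, chr15:55289248-55290944) measured 51.6 and 59.4 CPM at 0 h, 41.8 and 47.0 at 6 h, then 23.1 and 23.8 at 72 h. It was lower at 72 h on the TMM scale (-1.24 ± 0.15, adjusted p = 2.3e-07), but the value was 0.04 with loess offsets (adjusted p = 0.79) and -0.27 with shared-peak factors (adjusted p = 0.078). The largest fall in the gene was at a weaker site, peak57330 (chr15:55296870-55297435), with 2.01 and 2.77 CPM at 0 h, 0.512 and 0.601 at 6 h, then 0.311 and 0.142 at 72 h. Its change at 72 h was -3.40 ± 0.49 (adjusted p = 2.9e-06), lower in all 5 scalings, and -4.05 without the library 72 h replicate 1. The site with the lowest p at 72 h, peak57311 (chr15:55196307-55197466), is a flank site nearer to RSL24D1 and changed by -1.40 ± 0.16.

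At 2 neighbouring RAB27A sites accessibility rose at 6 h and was gone again at 72 h. The clearer was peak57319 (chr15:55241805-55242320), 4412 bases from the nearest annotated start, with 0.585 and 0.813 CPM at 0 h, 6.31 and 6.71 at 6 h, then 0.673 and 0.543 at 72 h. The 6 h libraries stood far above the other 4, which overlapped each other. It rose by 3.19 ± 0.36 at 6 h (adjusted p = 3.7e-07), fell by 3.42 from 6 to 72 h (adjusted p = 2.4e-07) and stood at -0.23 ± 0.42 against 0 h at 72 h. Its neighbour peak57320 showed the same shape, with means of 0.564, 2.04 and 0.470 CPM. The one RAB27A site called higher at both times was peak57322, by 1.43 and 0.69.

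RAB27B, the close relative that is known in platelet dense granule secretion, gained accessibility at several sites, most of them in the first part of the gene, and lost it at others, the deepest of them in the last part. The gene lies on chr18:54717857-54895516 (gene ID 5874) and had 21 sites, of which 8 rose and 3 fell at 6 h and 7 rose and 6 fell at 72 h. All 8 of the 6 h rises were called in all 5 scalings, as were all 3 of the 6 h falls. At 72 h 6 rises and 2 falls were called in all 5.

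The strongest RAB27B site (peak79001, chr18:54775874-54776791, in the gene body) measured 5.33 and 7.65 CPM at 0 h, 17.5 and 21.8 at 6 h, then 12.1 and 13.8 at 72 h. All treated libraries lay above both 0 h libraries. It rose by 1.59 ± 0.22 at 6 h (adjusted p = 4.3e-06) and 0.98 ± 0.21 at 72 h (adjusted p = 0.00036). Another body site, peak78996 (chr18:54742497-54743880), climbed from 0.845 and 1.20 CPM to 3.67 and 5.76 at 6 h, then 7.22 and 6.28 at 72 h, a change of 2.22 ± 0.33 and then 2.69 ± 0.32 (adjusted p = 1.6e-05 and 2.4e-07). Both sites were higher at both times in all 5 scalings.

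The falls in RAB27B lay further along. Site peak79009 (chr18:54871125-54871717) measured 4.22 and 3.25 CPM at 0 h, 0.171 and 1.20 at 6 h, then 0.414 and 0.236 at 72 h, a change of -3.51 ± 0.50 at 72 h (adjusted p = 2.4e-06). Next to it, peak79010 (chr18:54873052-54873656) went from 4.94 and 4.83 CPM to 0.938 and 0.823 at 6 h, then 1.68 and 1.51 at 72 h. Its change was -2.49 ± 0.35 at 6 h and -1.61 ± 0.30 at 72 h, negative in all 5 scalings, though not called at 72 h with shared-peak factors (-0.64, adjusted p = 0.066).

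Between these stretches, the RAB27B start under the printed window changed little on the TMM scale. Its site (peak79005, chr18:54828093-54828963) measured 3.96 and 3.92 CPM at 0 h, 5.37 and 5.66 at 6 h, then 4.71 and 5.50 at 72 h. All treated libraries were above both untreated ones, but the changes of 0.49 ± 0.26 (adjusted p = 0.13) and 0.37 ± 0.25 (adjusted p = 0.19) were not called. With shared-peak factors they were 0.79 and 1.34 and both were called, and with total counts the 72 h value of 0.87 was called. The outermost start site (peak78993) was weak, with means of 1.1, 0.912 and 0.740 CPM.

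**Figure D1:**
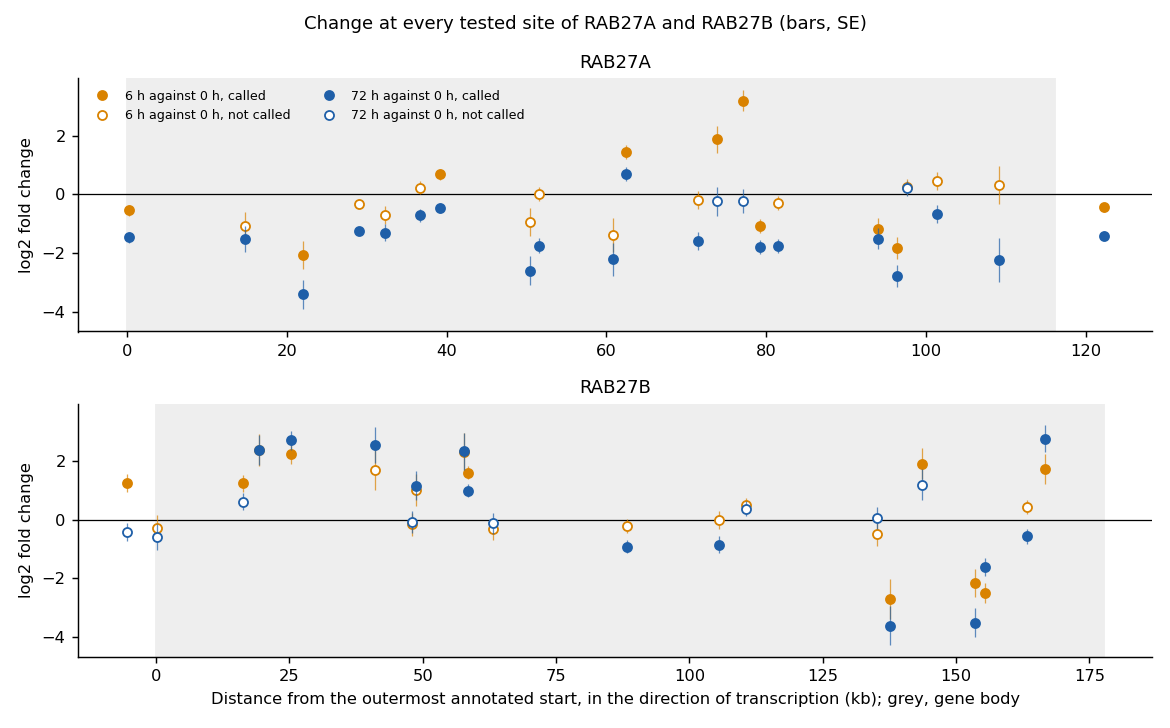
Log2 fold change (TMM scale) at every tested site of RAB27A (22 sites) and RAB27B (21 sites) against distance from the outermost annotated start in kb, at 6 h (orange) and 72 h (blue) against 0 h, with SE bars. Filled points were called at an adjusted p under 0.05. RAB27A is mostly below 0 at 72 h with 2 tall points at 6 h alone, while RAB27B has most of its rises in the first part of the gene and its deepest falls, with 2 rises among them, in the last part.

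RAB32 and RAB38, which act together on cargo for lysosome-related organelles, had few sites. RAB32 (chr6:146543833-146554953, gene ID 10981) had 3, and 1 fell at 6 h and 2 at 72 h. Its start site (peak148524, chr6:146543224-146544384) was among the strongest of the granule genes, with 50.3 and 59.2 CPM at 0 h, 36.2 and 37.4 at 6 h, then 28.0 and 29.4 at 72 h. The 3 times did not overlap. The change was -0.57 ± 0.15 at 6 h (adjusted p = 0.0035) and -0.93 ± 0.15 at 72 h (adjusted p = 9.1e-06) on the TMM scale. At 72 h the sign turned with the scale, being 0.35 with loess offsets (adjusted p = 0.023) and 0.04 with shared-peak factors (adjusted p = 0.83). No RAB32 site was called in one direction by all 5 scalings at either time.

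RAB38 spans chr11:87803715-88175443 (gene ID 23682) and had 6 sites, of which 1 rose at 6 h, 2 rose at 72 h and none fell. The site at its annotated end (peak35569, chr11:88174597-88175831) measured 3.96 and 2.68 CPM at 0 h, 4.86 and 3.58 at 6 h, then 3.03 and 4.08 at 72 h. The times overlapped, and the changes of 0.33 ± 0.31 and 0.12 ± 0.29 were not called (adjusted p = 0.42 and 0.74). At 72 h the value was -0.06 with RLE, -0.19 with loess offsets and 1.08, called, with shared-peak factors. One site that rose at both times was the faint body site peak35565 (chr11:87926802-87927064), with 0.130 and 0.143 CPM at 0 h, 1.19 and 0.570 at 6 h, then 0.880 and 0.732 at 72 h. It rose by 2.51 ± 0.72 at 6 h and 2.51 ± 0.68 at 72 h (adjusted p = 0.0084 and 0.0028), in all 5 scalings.

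RAB6B (chr3:133824235-133895882, gene ID 51560) had 16 sites, with 2 rises and 2 falls at 6 h and 6 rises and 6 falls at 72 h. Its start site (peak119192, chr3:133895308-133896147) measured 11.9 and 11.5 CPM at 0 h, 9.81 and 8.20 at 6 h, then 4.50 and 3.61 at 72 h. The fall of -0.39 ± 0.22 at 6 h was not called (adjusted p = 0.17), and that of -1.53 ± 0.22 at 72 h was (adjusted p = 4.0e-06), in all 5 scalings. Inside the gene, peak119187 (chr3:133880107-133880789) went the other way, from 0.195 and 0.430 CPM to 2.05 and 1.33 at 6 h, then 4.56 and 6.37 at 72 h. That rise of 4.04 ± 0.43 at 72 h (adjusted p = 5.0e-08) was among the 5 largest of RAB sites with a mean of at least 1 CPM, and was 4.78 without the library 0 h replicate 2.

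The strongest RAB6B site (peak119182, chr3:133851181-133852067) measured 29.7 and 16.6 CPM at 0 h, 13.2 and 10.6 at 6 h, then 7.38 and 8.21 at 72 h. It was lower at both times in all 5 scalings, by -0.97 ± 0.23 and -1.56 ± 0.23 with TMM (adjusted p = 0.0019 and 3.9e-06). The 6 h call was lost without the library 0 h replicate 1 (adjusted p = 0.057), which was the higher of the pair. Site peak119191 (chr3:133892502-133893021), 2826 bases inside the start, changed by -1.56 ± 0.33 at 6 h, lower in all 5 scalings, and by -1.36 ± 0.30 at 72 h, not called with shared-peak factors (-0.40, adjusted p = 0.25).

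**Figure D2:**
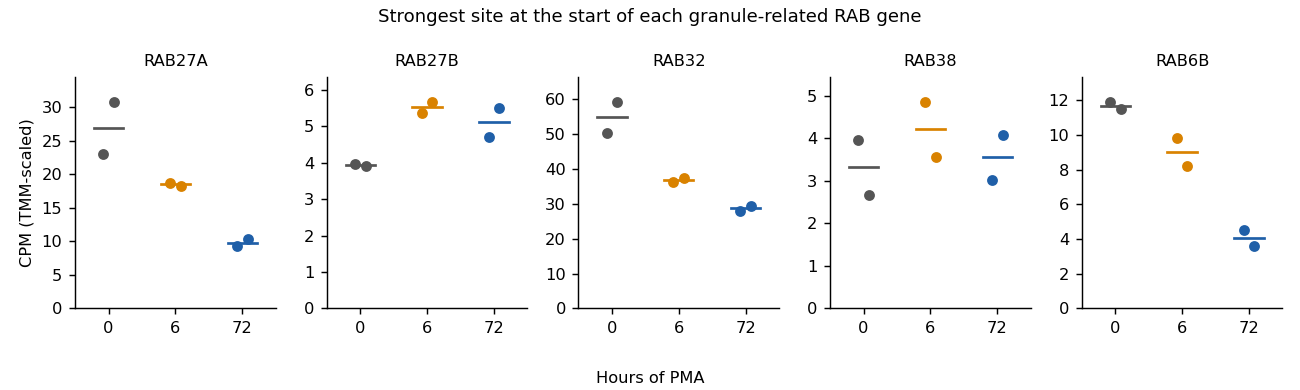
Accessibility in CPM (TMM-scaled, linear axis from 0) of the strongest start site of RAB27A, RAB27B, RAB32, RAB38 and RAB6B after 0, 6 and 72 h of PMA. Points are libraries and lines are group means (n = 2). RAB27A, RAB32 and RAB6B step down with time on this scale (RAB32 at 72 h does not with loess offsets or shared-peak factors), while RAB27B is slightly above its 0 h level and RAB38 overlaps between times.

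Over the 5 granule genes together, 27 of 68 sites were called at 6 h (15 higher, 12 lower). At 72 h 48 were called (16 higher, 32 lower), and 28 between 6 and 72 h (5 higher, 23 lower). The shares called were 39.7%, 70.6% and 41.2%, near the 40.1%, 67.4% and 42.9% of all sites. At 72 h 23.5% were higher and 47.1% lower, against 38.2% and 29.2% of all sites. RAB27A alone gave 18 of the 32 falls and 1 of the 16 rises at 72 h, so these shares lean on that gene. Called in one direction by all 5 scalings at 72 h were 10 rises and 12 falls, the rises in RAB27B (6), RAB6B (3) and RAB38 (1). Whether RAB27A and RAB27B differed in their response was not tested.

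Across all RAB genes 489 sites could be tested and 6 were too low. At 6 h 227 were called, 106 higher and 121 lower, or 46.4% of the RAB sites. At 72 h 328 were called, 117 higher and 211 lower, or 67.1%, close to the background of 67.4%. Between 6 and 72 h 245 were called, 63 higher and 182 lower, or 50.1%, where the background was 42.9% (22.1% higher, 20.9% lower). Falls made up a larger share of RAB sites than of all sites in each comparison and in each of the 5 scalings, for TMM at 72 h 43.1% against 29.2%. In at least 1 of the 3 comparisons 387 RAB sites were called (79.1%), against 76.4% of all sites. The median log2 fold change at 72 h was -0.35 for RAB sites and 0.29 for all sites.

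The split of rises and falls moved with the scale. Of the RAB sites called at 72 h, the share called higher was 35.7% with TMM, 31.7% with RLE, 53.2% with total counts, 35.7% with loess offsets and 69.9% with shared-peak factors. At 6 h these shares were 46.7%, 38.8%, 58.1%, 47.7% and 73.5%, and between 6 and 72 h 25.7%, 23.8%, 45.5%, 31.5% and 70.8%. The RAB median stood below that of all sites at 72 h by 0.64 with TMM, 0.64 with RLE, 0.65 with total counts, 0.27 with loess and 0.65 with shared-peak factors. Calls shared by all 5 scalings numbered 88 rises and 46 falls at 6 h and 83 rises and 72 falls at 72 h.

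Gene starts made up more of the RAB sites than of all sites, 14.9% against 9.81%, and RAB sites were stronger, with a median of 3.15 against 2.05 CPM. Peaks in all 6 libraries covered 30.9% of RAB sites and 19.8% of all sites. Counting the starts of neighbouring genes too, 104 tested RAB sites lay at a protein-coding start, and 4 of them rose and 83 fell at 72 h. Away from every start, 113 of 385 RAB sites rose (29.4%) and 128 fell (33.2%) at 72 h, where all such sites had 41.4% and 24.4%. The share called was 62.6% against 65.8%, and the medians were 0.02 and 0.51. Between 6 and 72 h 161 of them were called (41.8% against 39.9%).

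At the 74 RAB start sites, 7 rose and 33 fell at 6 h and 4 rose and 54 fell at 72 h. Start sites of all protein-coding genes had 8.24% higher and 38.2% lower at 6 h, and 9.69% higher and 73% lower at 72 h. Between 6 and 72 h 4 RAB starts rose and 53 fell, where all starts had 5.02% and 65.7%. The median at 72 h was -1.29 at RAB starts and -1.21 at all starts. With loess offsets 6 RAB starts rose and 31 fell at 72 h, and with shared-peak factors 18 rose and 33 fell. In all 5 scalings 18 fell and 2 rose, both of the latter at RAB17.

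RAB17, an epithelial RAB of the recycling endosome, had the 2 start sites with the largest rises. Its start site (peak100019, chr2:237590204-237590787) measured 0.390 and 0.335 CPM at 0 h, 1.19 and 1.49 at 6 h, then 3.05 and 3.19 at 72 h, rising by 1.92 ± 0.47 and 3.1 ± 0.43 (adjusted p = 0.0026 and 1.7e-06). The second site, just upstream (peak100020, chr2:237591171-237592009), went from 1.17 and 1.67 CPM to 3.16 and 4.75 and then 7.35 and 6.87, by 1.49 ± 0.32 and 2.30 ± 0.30. Both were called higher at both times in all 5 scalings. The printed RAB17 window lies mostly between these sites.

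The other starts that rose at 72 h were weaker calls. RAB7B (peak16830) rose by 0.98 ± 0.32 (adjusted p = 0.0096), not called with loess offsets (0.61), with DESeq2 (0.80) or without 0 h replicate 2 (0.83) or 72 h replicate 1 (0.69). RAB33A (peak179983) rose by 1.32 ± 0.50 (adjusted p = 0.025), not called with RLE (1.13), loess (0.69) or DESeq2 (1.14), nor without 0 h replicate 2 or either 72 h library. RAB33A had no promoter entry, so either end of the gene was taken as a start.

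The deepest falls at starts were in RAB43, RAB26, RAB39A and RAB33A. RAB43 (peak118865, chr3:129121177-129122389, shared with the readthrough gene ISY1-RAB43) measured 36.6 and 25.4 CPM at 0 h, 18.2 and 15.3 at 6 h, then 7.35 and 6.99 at 72 h, a change of -2.11 ± 0.20 (adjusted p = 9.0e-09). RAB39A (peak36268, chr11:107927900-107928785), the only site of that phagosome-associated RAB, measured 27.4 and 28.4 CPM, then 13.7 and 11.3, then 9.09 and 6.44, a change of -1.84 ± 0.20. Both were lower at both times in all 5 scalings. RAB26, linked to secretory granules, fell at peak62043 (-1.94 ± 0.22) and at peak62045 (-1.89 ± 0.13), of which the latter overlaps TRAF7. RAB26 had no promoter entry either, and peak62045 counted as a start only through a gene end 965 bases away. RAB33A fell by -1.83 ± 0.17 at peak179972, which overlaps ELF4. All 3 were lower at 72 h in all 5 scalings.

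**Figure D3:**
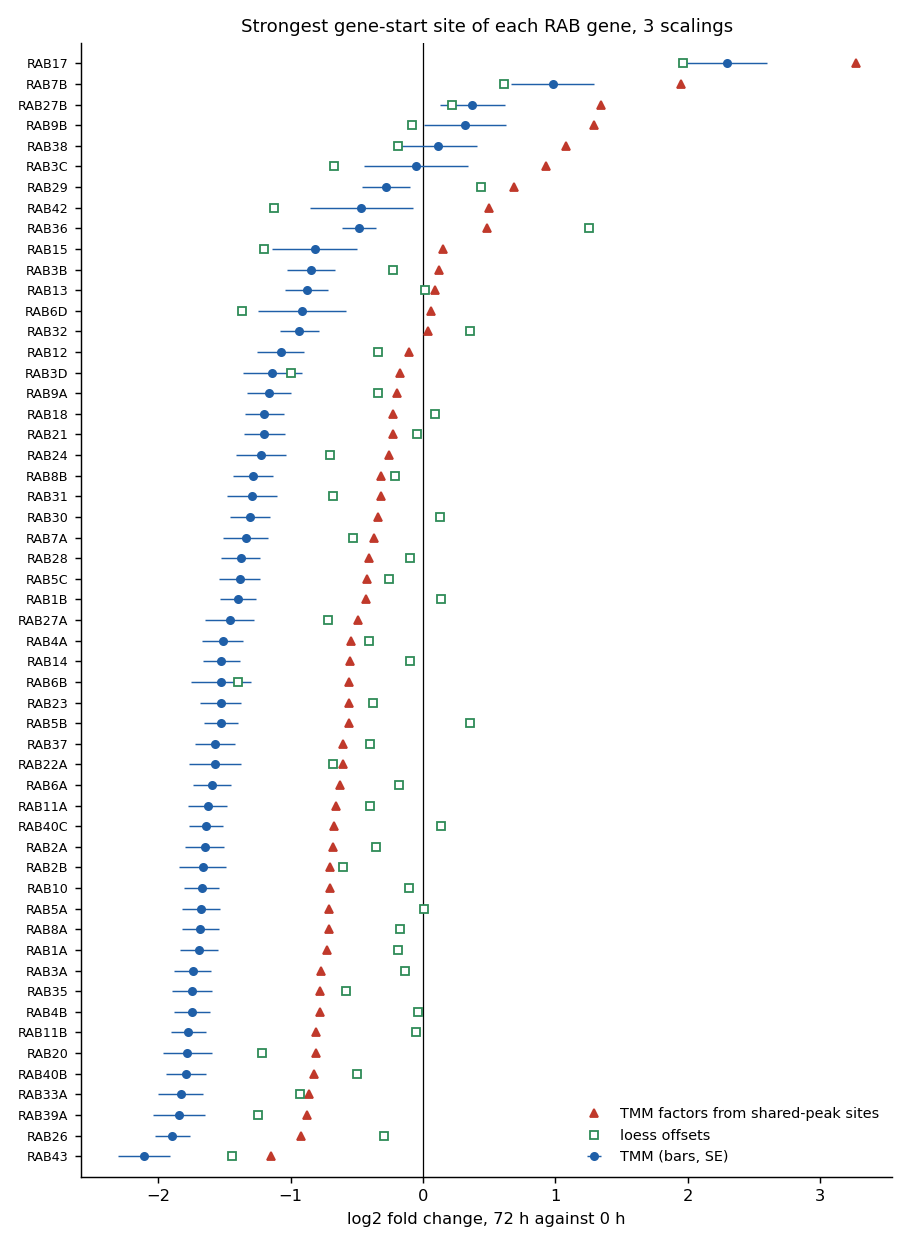
Log2 fold change at 72 h against 0 h of the strongest start site of each of 54 RAB genes, with TMM (circles, SE bars), TMM factors from shared-peak sites (triangles) and loess offsets (squares). Values were below 0 in 49 genes with TMM, 40 with shared-peak factors and 41 with loess offsets, and RAB17 is highest in all 3.

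The promoter windows gave a sequence view of the same starts. RefSeq windows of 250 bases matched 50 of the 63 genes with 71 starts. Their median GC content was 64%, against 62% for 22198 windows of all protein-coding genes, and their median CpG number was 18 against 16. The GC box GGGCGG occurred in 71.8% of RAB windows and 53.7% of all. The AP-1 letters TGANTCA occurred in 8.45% against 5.36%, and the ETS letters CCGGAAG in 9.86% against 10.7%. The motif AGATAA of GATA factors occurred in 5.63% against 7.09%, and TGTGGT of RUNX factors in 8.45% against 9.36%. The cAMP element TGACGTCA occurred in 1.41% against 2.01%. Each was searched on both strands, and a match is a description of letters, not of binding.

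The 39 start sites over windows with 10 or more CpG had a median change of -1.51 at 72 h, and the 8 sites over windows with fewer had -0.22. With loess offsets the medians were -0.21 and -0.05. For all protein-coding genes the medians of the same split were -1.37 and -0.78 with TMM, and -0.33 and -0.27 with loess offsets. Spearman's rho of CpG number and 72 h change, on the TMM scale only, was -0.50 over 47 sites. It was -0.33 over 10412 sites of all protein-coding genes. The points share the same libraries. RAB17, with 6 CpG, and RAB32, with 36, stand at opposite ends of the printed set.

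One RAB13 window held 2 AP-1 matches and was singled out after its values were seen. RAB13 acts at tight junctions, and its inner start lies under peak12498 (chr1:153985226-153985868). The stretch chr1:153985471-153985500 (minus strand, RefSeq GRCh38.p14) reads, with TGANTCA matches in capitals:
RAB13: gtctcTGAGTCAgcctggTGACTCAtcctc
That site measured 4.29 and 5.12 CPM at 0 h, 9.64 and 11.4 at 6 h, then 4.79 and 6.23 at 72 h. It rose by 1.17 ± 0.24 at 6 h (adjusted p = 0.00058), in all 5 scalings, and was 0.22 ± 0.24 above 0 h at 72 h. The outer RAB13 start (peak12499) had means of 26.7, 24.8 and 14.5 CPM. Whether AP-1 proteins bind there was not tested. The other RAB windows with this motif and a tested site over the start were in RAB3B, RAB5B and RAB27B. The 6 h changes of those sites were 0.19 (peak6737), -0.34 (peak41655) and 0.49 (peak79005, not called). RAB13 had the largest rise of these windows, but it was picked with its values in view, so the ranking is no test.

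By role, the list of late endosome and lysosome genes had the most rises at 6 h for its size. Of its 58 sites 22 rose and 7 fell at 6 h, and 18 rose and 18 fell at 72 h. At 6 h that was 37.9% higher and 12.1% lower, where all sites had 23.4% and 16.8%. At 72 h it was 31% each way, where all sites had 38.2% and 29.2%. Calls by role here and below are on the TMM scale unless stated. RAB7B, a lysosomal relative of RAB7A, had 13 of these sites and gave 9 of the 22 rises at 6 h and 10 of the 18 at 72 h. At each time 1 RAB7B site fell. Calls shared by all 5 scalings were 8 rises at 6 h and 9 at 72 h. The upstream site peak16831 (chr1:206005833-206006463) measured 0.910 and 0.622 CPM at 0 h, 6.91 and 5.95 at 6 h, then 9.81 and 9.91 at 72 h, a rise of 3.71 ± 0.30 (adjusted p = 1.8e-09). Its strongest site, peak16829, had means of 8.62, 74.6 and 38.6 CPM. RAB7A, the main late endosome RAB, had 5 rises and no fall at 6 h but 3 rises and 5 falls at 72 h among 14 sites. RAB29, known from lysosome and Golgi traffic, had 3 rises and no fall at 72 h. RAB9A, RAB9B, RAB12 and RAB24, of late endosome and autophagy routes, had no rise at 72 h, with 3, 1, 1 and 5 falls. RAB20 had 2 of each.

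In the early endosome list, 20 of 87 sites rose and 24 fell at 6 h, and 18 rose and 39 fell at 72 h. At 6 h that was 23% higher and 27.6% lower (all sites, 23.4% and 16.8%). At 72 h it was 20.7% and 44.8% (all sites, 38.2% and 29.2%). RAB22A, an early endosome RAB related to RAB5, held the largest rise among RAB sites with a mean of at least 1 CPM. Its site peak104810 (chr20:58312708-58313362), 2993 bases inside the start, measured 0.390 and 0.143 CPM at 0 h, 12.9 and 10.5 at 6 h, then 7.48 and 9.30 at 72 h. It rose by 5.51 ± 0.38 at 6 h and 5.05 ± 0.39 at 72 h (adjusted p = 5.6e-10 and 8.4e-10). The 0 h level rests on few counts, and without 0 h replicate 1 or 2 the 6 h value was 6.23 or 4.88 and the 72 h value 5.82 or 4.41. A second RAB22A site upstream (peak104808, chr20:58306687-58307313) rose by 3.38 ± 0.35 at 6 h, or 2.65 without 6 h replicate 2. The RAB22A start (peak104809) went the other way, with means of 34.6, 24.5 and 11.6 CPM and a 72 h change of -1.57.

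RAB4A, of fast recycling from early endosomes, had one strong rise, peak18962 (chr1:229299949-229300903), with 2.66 and 2.25 CPM at 0 h, 22.3 and 27.5 at 6 h, then 13.9 and 15.8 at 72 h. That was 3.36 ± 0.23 and 2.60 ± 0.22, in all 5 scalings, and the other calls in the gene were 2 falls at 6 h and 3 at 72 h. RAB5B, an early endosome fusion RAB, held the deepest fall at 72 h. Its body site peak41657 (chr12:55983348-55983995) measured 5.85 and 4.88 CPM, then 2.05 and 1.01, then 0.155 and 0.496, a change of -4.00 ± 0.44 (adjusted p = 7.4e-08) and -5.06 without 72 h replicate 2. RAB21, of integrin uptake, had the deepest 6 h fall among sites with a mean of at least 1 CPM, peak42620 (chr12:71787507-71788089), with 3.77 and 2.58 CPM, then 0.597 and 0.348, then 0.751 and 0.968. The change was -2.86 ± 0.46 at 6 h and -1.87 ± 0.38 at 72 h.

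RAB31, an early endosome and trans-Golgi RAB, had the most sites, 38, with 11 rises and 8 falls at 6 h and 7 rises and 14 falls at 72 h. Its flank site peak77148 (chr18:9700216-9700954) fell from 10.3 and 9.51 CPM to 2.47 and 1.77 at 6 h, then 1.92 and 1.20 at 72 h, by -2.28 ± 0.30 and -2.67 ± 0.28. RAB5A had no rise at either time, 1 fall at 6 h and 4 at 72 h. RAB4B had 3 falls and then 4, RAB14 had 1 at each time, and RAB5C had 1 fall at 6 h and 2 rises and 3 falls at 72 h.

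The ER and Golgi list had 18 rises and 29 falls at 6 h and 30 rises and 42 falls at 72 h among 102 sites. At 6 h that was 17.6% higher and 28.4% lower (all sites, 23.4% and 16.8%). At 72 h it was 29.4% and 41.2% (all sites, 38.2% and 29.2%). RAB30, a Golgi RAB, had the most late rises of any gene. Of its 17 sites 5 rose and 4 fell at 6 h, and 12 rose and 3 fell at 72 h, of which 10 rises and no fall were called in all 5 scalings. The body site peak35347 (chr11:83051899-83052231) measured 0.195 and 0.239 CPM at 0 h, 0.426 and 0.411 at 6 h, then 3.81 and 3.75 at 72 h. It was 0.91 ± 0.62 at 6 h, not called, and rose by 4.07 ± 0.46 at 72 h (adjusted p = 1.1e-07). The flank site peak35335 had no count in either 0 h library, 2 and 6 counts at 6 h, then 35 and 41 at 72 h, at least 11.3-fold higher at 72 h against a floor of 3 counts over the 0 h libraries, which covers counting error only. The RAB30 start (peak35350) fell, with means of 69.4, 63.4 and 28.0 CPM, a change of -1.31 with TMM but 0.13 with loess offsets.

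RAB33B, which binds an autophagy complex, had 2 falls at each time, the larger at peak128241 (chr4:139443506-139444169), with 11.2 and 10.9 CPM, then 2.39 and 1.68, then 2.9 and 4.48. That was -2.51 ± 0.29 at 6 h and -1.58 ± 0.26 at 72 h, lower in all 5 scalings. RAB33A had 17 sites, with 4 rises and 9 falls at 72 h. RAB2A, of ER to Golgi traffic, had 5 rises and 2 falls at 6 h, then 3 and 2 at 72 h among 12 sites. RAB1A had 2 rises and 2 falls at 6 h, then 2 and 1 at 72 h. Only falls were called at 72 h in RAB1B (4), RAB2B (2), RAB41 (1) and RAB19 (1), while RAB6A and RAB18 had 1 rise each with 3 and 4 falls, and RAB43 1 rise and 4 falls. RAB6D, in no role list, had 1 site, which fell.

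The exocytosis list had 34 rises and 29 falls at 6 h, then 33 and 55 at 72 h among 136 sites. At 6 h that was 25% higher and 21.3% lower (all sites, 23.4% and 16.8%). At 72 h it was 24.3% and 40.4% (all sites, 38.2% and 29.2%). The list includes RAB27A, RAB27B, RAB32 and RAB38, while RAB6B was counted in the ER and Golgi list. RAB3B, a synaptic-vesicle RAB, had 11 rises and 5 falls at 72 h among 24 sites, with 8 rises in all 5 scalings. RAB8B, of exocytic traffic, had 9 rises and 3 falls at 6 h, then 3 and 6 at 72 h. Its body site peak57952 (chr15:63250079-63250869) measured 0.780 and 0.478 CPM at 0 h, 11.0 and 15.1 at 6 h, then 10.3 and 10.8 at 72 h. It rose by 4.42 ± 0.32 and 4.10 ± 0.31 (adjusted p = 7.4e-10 and 8.8e-10), in all 5 scalings. RAB8A had a flank site that fell, peak82024, nearer to HSH2D, by -2.26 ± 0.40 at 6 h, or -3.96 without 6 h replicate 2. RAB3C had 3 rises and no fall at 72 h, RAB37 had 3 and 4, RAB26 1 and 3, RAB3A 0 and 2, RAB3D 0 and 3, and RAB13 0 and 4.

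In the recycling list 12 of 43 sites rose and 19 fell at 72 h, against 5 and 10 at 6 h. At 72 h that was 27.9% higher and 44.2% lower (all sites, 38.2% and 29.2%). At 6 h it was 11.6% and 23.3% (all sites, 23.4% and 16.8%). RAB35, of recycling and cytokinesis, had 1 rise and 4 falls at 72 h. Site peak45399 (chr12:120110652-120111258) went from 4.61 and 3.06 CPM to 1.62 and 1.71 and then 0.570 and 0.378, a change of -3.00 ± 0.39. The flank site peak45398, nearer to BICDL1, changed by -3.16 ± 0.37, or -3.97 without 72 h replicate 2. RAB10, of basolateral and GLUT4 traffic, rose at peak87879 (chr2:26051268-26051799) from 0.260 and 0.239 CPM to 2.73 and 3.51 and then 1.06 and 1.91, by 3.65 ± 0.51 at 6 h. RAB11A and RAB25 had falls only at 72 h (2 and 3), RAB11B had 1 rise and 2 falls and RAB15 2 of each.

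The list of cilium and other genes had 6 rises and 37 falls at 72 h among 62 sites, with 7 and 22 at 6 h. At 72 h that was 9.68% higher and 59.7% lower (all sites, 38.2% and 29.2%). At 6 h it was 11.3% and 35.5% (all sites, 23.4% and 16.8%). RAB36 had 1 rise and 8 falls among 10 sites, and its strongest site, peak109369, overlaps BCR. That site had means of 197, 170 and 95.2 CPM, a 72 h change of -1.05 with TMM but 1.02 with loess offsets. Only falls were called at 72 h in RAB28 (5), RAB34 (5), RAB40C (5), RAB42 (4) and RAB39A (1). RAB23 had 2 rises and 3 falls, RAB40B 1 and 4, and RAB44 2 and 2.

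**Figure D4:**
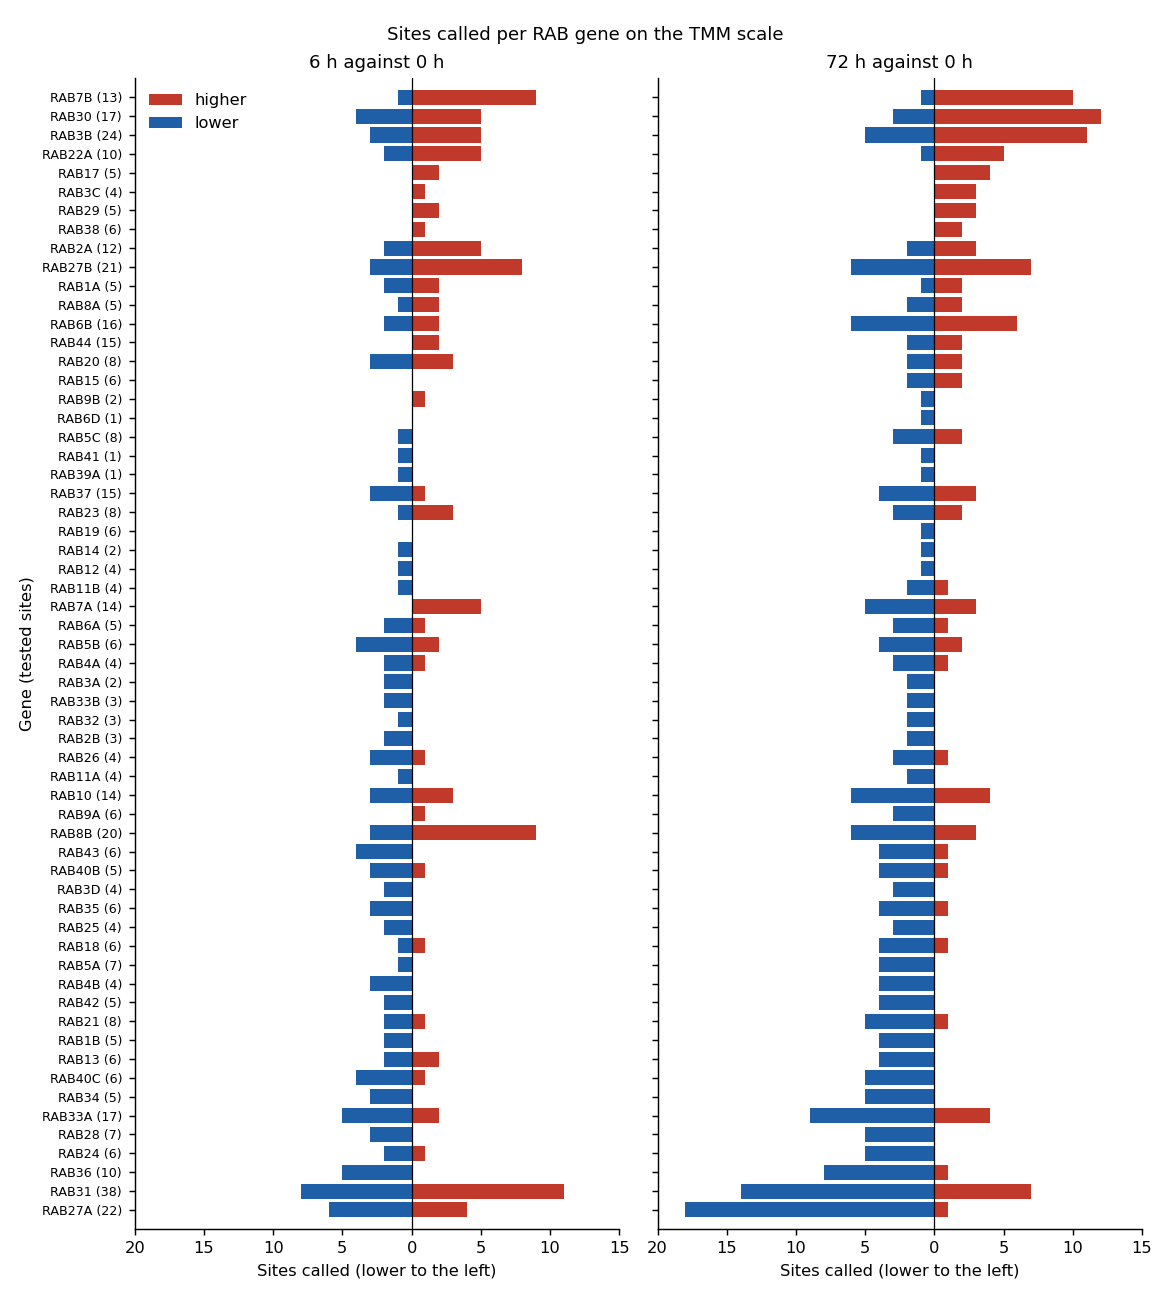
Number of sites called higher (red, right) and lower (blue, left) per RAB gene at 6 h and 72 h against 0 h on the TMM scale, for the 60 genes with tested sites (number in brackets). At 72 h RAB30, RAB3B and RAB7B carry the most rises (12, 11 and 10) and RAB27A and RAB31 the most falls (18 and 14).

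By gene, 32 of the 60 had both rises and falls at 72 h, 24 had falls only and 4 had rises only. Those 4 were RAB3C, RAB17, RAB29 and RAB38. At 6 h 27 were mixed, 22 had falls only, 8 had rises only and 3 had no call. The comparisons with 0 h share the same 0 h libraries, so likeness between 6 and 72 h is no independent result. Side by side, 72 RAB sites were higher at both times (14.7%, against 19.7% of all sites) and 110 were lower at both (22.5% against 14.3%).

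Rises that had gone by 72 h were found at 25 RAB sites, defined as higher at 6 h, lower at 72 h than at 6 h and not called at 72 h against 0 h. That is 5.11% of the tested sites, where all sites had 2.28%. RAB8B and RAB31 held 5 each, RAB27A, RAB2A and RAB22A 2 each. In RAB8B they lay at peak57936, peak57941, peak57942, peak57943 and peak57948, with means at 6 h of 12.3, 7.10, 10.6, 13.4 and 3.82 CPM against 5.51, 3.75, 4.34, 6.68 and 1.65 at 0 h. With total counts and with shared-peak factors all 5 were still called higher at 72 h, with shared-peak factors by 1.17 to 1.44, so their return depended on the scale. The RAB27A site peak57319 was not called at 72 h in any of the 5 scalings. The reverse shape was found at 9 RAB sites (1.84% against 1.29%).

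**Figure D5:**
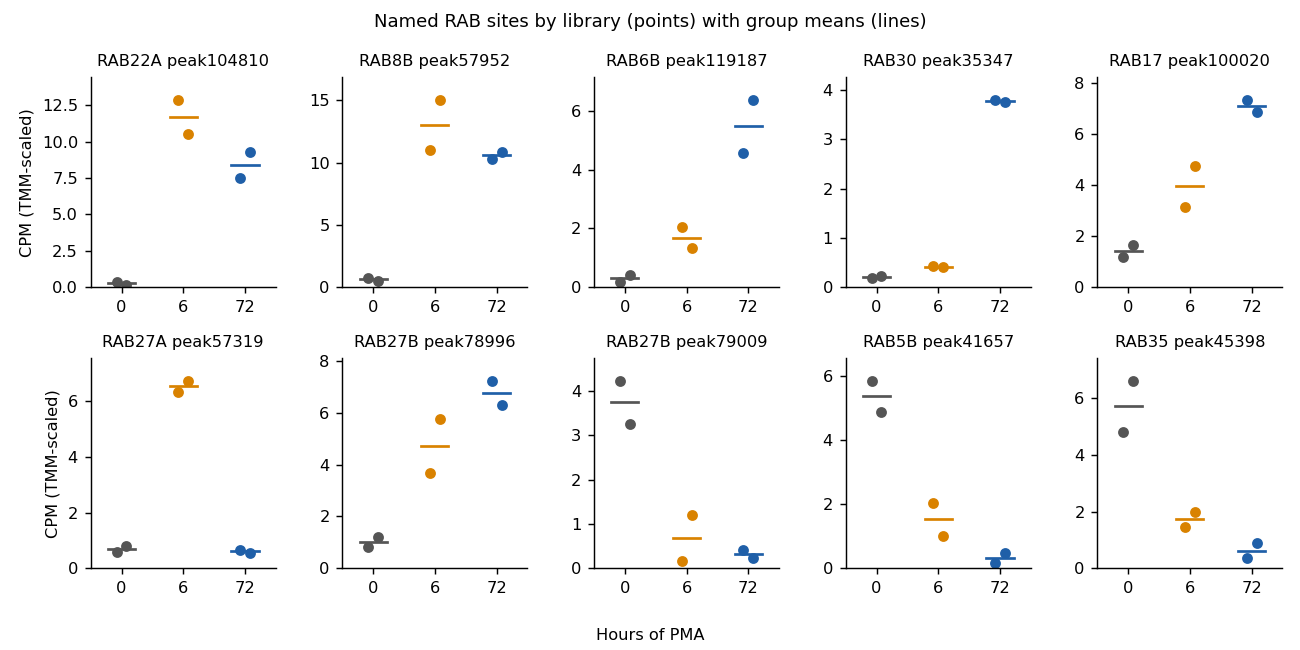
Accessibility in CPM (TMM-scaled, linear axes from 0) of 10 named RAB sites after 0, 6 and 72 h of PMA, with libraries as points and group means as lines (n = 2). The RAB22A, RAB8B and RAB27B rises were kept to 72 h, RAB30 rose only late, RAB27A peak57319 rose at 6 h alone, and the last 3 panels fell.

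The partners of RAB proteins were taken from 5 lists with 64 genes and 835 tested sites, none shared with RAB genes. Over all 5, 180 sites rose and 163 fell at 6 h and 276 rose and 292 fell at 72 h. The shares called were 41.1% and 68%, near the 40.1% and 67.4% of all sites. RAB27 effectors, which tether granules to the membrane or to myosin, had 56 rises and 31 falls at 72 h among 131 sites. That is 42.7% higher and 23.7% lower, where all sites had 38.2% and 29.2%. The median was 0.72 against 0.29, and the share called was 66.4%. Prenylation and membrane cycling genes had 5 rises and 16 falls among 30 (16.7% and 53.3%). RAB activators had 85 and 88 among 251 (33.9% and 35.1%), and GTPase activating proteins 97 and 109 among 299 (32.4% and 36.5%). Granule biogenesis partners had 33 and 48 among 124 (26.6% and 38.7%).

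Among called partner sites with a mean of at least 1 CPM and no overlap between groups, the largest rise was at a body site of MLPH, the melanophilin that links RAB27A to myosin (peak100004, chr2:237502422-237502652), with 1 and 1 counts at 0 h, 8 and 50 at 6 h, then 119 and 115 at 72 h. Per library size that was 52.4-fold at 72 h, with an exact 95% binomial interval from 14.3 to 435 that covers counting error only. Sites peak101498 and peak101513 of RIN2, a RAB5 exchange factor, rose by 4.49 ± 0.44 and 4.45 ± 0.40. The deepest fall was in VPS33B, which is needed for alpha granules (peak60982, chr15:91004306-91005015), with 10.6 and 11.1 CPM at 0 h, 2.22 and 0.918 at 6 h, then 0.337 and 0.212 at 72 h. It changed by -5.30 ± 0.38 (adjusted p = 4.7e-10). RIN3 (peak53630) changed by -4.13 ± 0.35, and a flank site of TBC1D10C, a RAB GTPase activating protein, by -3.52 ± 0.37 (peak33847, nearer to CARNS1).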

How the data were processed

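The authors deposited a table of read counts per site and library, and peak lists per library with a score, a fold enrichment over background and −log10 p and q values, of which only peak positions were used here. The deposited table also holds the authors' log2 fold changes, adjusted p-values and site classes, none of which is reported here. The submitters' processing notes name hg38, Trim Galore 0.4.3, BWA 0.7.17, SAMtools 1.9, deepTools 3.0.1, MACS2, bedtools 2.26 and DESeq, without roles. Any shift of read ends is not given in the sources used here. Members and gene lists were chosen with earlier results of these data known.

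Counts were fitted with edgeR 4.0.16 in R 4.3.3 (quasi-likelihood, 3 groups, 6 libraries, TMM, default low-count filter, 177759 of 181135 sites tested), with DESeq2 1.42.0 as an alternative. The common biological coefficient of variation was 0.166. The fit was tested on simulated counts. Genes and promoters came from RefSeq (GRCh38.p14), without exons. For 13 RAB genes with no promoter entry, either gene end counted as a start. Named for the granule genes were the strongest start site, the strongest site and the sites with the lowest p at 6 and 72 h. Beyond these, named were the 5 largest rises and falls at each time among called RAB sites with a mean of at least 1 CPM and no overlap between groups, genes with one of the 5 largest numbers of calls or start changes at 72 h, and, under the same limits, the 3 largest changes each way at 72 h among partner sites. Other sites named were picked after their values were seen. Start positions are 1-based. Some marker genes that were examined are not reported here.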

Additional observations from a re-analysis of the deposited data

Results flagged for a closer look

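At 2 RAB sites the changes from 0 to 6 h and from 0 to 72 h were both called and pointed in opposite directions, and the difference between them was itself called. Both sites were picked for this pattern. Calls in opposite directions at these times were made at 0.409% of tested RAB sites and at 0.5% of all sites. RAB30 peak35348 (chr11:83053776-83054547, gene body) measured 4.94 and 3.49 CPM at 0 h, 2.22 and 2.31 at 6 h, then 14.8 and 15.8 at 72 h. It fell by 0.87 at 6 h and rose by 1.87 at 72 h, and the difference between 72 and 6 h was 2.74 (adjusted p = 1.5e-07). The signs were the same with loess offsets (-1.14 and 1.77) and shared-peak factors (-0.58 and 2.84).

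RAB27A peak57326 (chr15:55279315-55280679, gene body) measured 21.4 and 18.1 CPM at 0 h, 26.6 and 36.3 at 6 h, then 14.8 and 13.7 at 72 h. It rose by 0.68 at 6 h and stood at -0.47 at 72 h, a difference of -1.15 (adjusted p = 2.9e-05). Its 72 h value turned to 0.40 with loess offsets and 0.50 with shared-peak factors.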

How the results depend on the processing

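Of 663 values of the 40 named sites under alternatives, 627 kept their direction and their side of the threshold, 19 lost the call, 8 gained it, 6 uncalled ones changed sign and 3 reversed. The reversed ones at 72 h were RAB27A peak57329 with loess offsets (0.043) and RAB32 peak148524 with loess offsets (0.35) and shared-peak factors (0.035). Called RAB sites at an adjusted p under 0.01 and a log2 change above 1 numbered 121 at 6 h and 115 between 6 and 72 h, called start sites 9 at 6 h, and called granule sites 31 at 72 h. Called start sites at 6 h were 21 with loess offsets and 20 with shared-peak factors, and at 72 h 37 with loess offsets. Leaving out each library in turn gave 160 to 213 called RAB sites at 6 h, 270 to 334 at 72 h and 142 to 258 between 6 and 72 h, where dropping 72 h replicate 1 or 2 left 155 or 142. A lone library is then assumed to vary like the other groups. The causes were not tested. With 2 libraries per group and 12258890 counts in the shallowest, small changes at weak sites may be missed.

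Replicate numbers mark no shared batch in the labels. Same-numbered libraries had correlations of deviations of 0.131, 0.0762 and 0.118. A fit blocked on replicate number called 241, 330 and 255 RAB sites at 6 h, at 72 h and between them.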
